A study of Mus musculus with 17 samples.

Results

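The data address whether the difference that Trem2 makes to a myeloid cell in an amyloid brain depends on where that cell came from. For each gene the wild-type minus knockout difference in transplanted, circulation-derived cells was set against the same difference in microglia, and the interaction is the first minus the second on the scale log2(normalized read count + 1). A negative interaction therefore means that the wild-type minus knockout difference was lower, or more negative, in transplanted cells than in microglia, and a positive one that it was higher. Of 13501 genes in the deposited table, 12017 reached a normalized read count of 10 in at least 3 of the 14 libraries used, out of 17 in all, and these genes were tested. Wfdc18 and Camkv lay just inside that limit, each with a third-highest count of 10.07, and Sec14l5 and Hpdl just outside it, each with 9.85.

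All 14 libraries came from living CD45+CD11b+ brain cells of 5XFAD mice, a transgenic model that develops brain amyloid. Cells from Trem2-knockout donors (4 libraries, S32 to S35) and from Trem2-wildtype donors (4 libraries, S28 to S31) were taken from the brains of Trem2-KO; 5XFAD hosts that had received BMT+PLX5622, a bone marrow transplant and an inhibitor of the CSF1 receptor that depletes microglia. Microglia came from Trem2-KO; 5XFAD mice (3 libraries, S25 to S27) and Trem2-WT; 5XFAD mice (3 libraries, S22 to S24), labelled as untreated. Every transplant host was a Trem2 knockout, whichever donor was used, so that the genotype of the surrounding brain differed between the wild-type groups. Cell origin, transplant and drug changed together and cannot be told apart. Age, sex and the number of animals behind a library are not given in the labels used here, and the tests see the spread between libraries alone, part of which may be technical.

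Trem2 is a lipid-sensing receptor of myeloid cells that signals through the adaptor Tyrobp. In mouse microglia it is needed for the full disease-associated (DAM) state, in which cells near amyloid plaques lose homeostatic genes and gain genes of phagocytosis and lipid metabolism. After depletion of microglia, bone marrow progeny can fill the brain niche, but they keep a signature of hematopoietic origin, with little of the microglial transcription factor Sall1 and much of the membrane protein Ms4a7. These libraries followed the labels in both: Sall1 ran from 87.3 to 308.9 normalized read counts in knockout-donor cells and from 98.9 to 251 in wild-type-donor cells, against 3419.9 to 9289 in knockout microglia and 5765 to 6317 in wild-type microglia.

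The libraries held between 16163565 and 30606394 recovered reads. Some libraries stood apart within their groups. Knockout microglia S25 and S27 lay close together (chi-square per degree of freedom 9.76), as did wild-type microglia S22 and S23 (6.14) and wild-type-donor libraries S30 and S31 (4.93), while the other pairs within groups gave 15.3 to 133, the highest for S26 against S25. Summed over 19 neutrophil markers, the share of normalized counts was 0.0850% to 0.192% in knockout-donor cells, 0.123% to 0.143% in wild-type-donor cells, 0.327% to 0.852% in knockout microglia and 0.0837% to 0.101% in wild-type microglia. Knockout microglia were highest and overlapped no other group, with S25 and S27 above S26. Oligodendrocyte markers stood high in S30 and S31, with a mean log2 value of 10.2 in each against 4.65 to 7.18 in the other 12 libraries. In bulk samples, fewer cells of a type and less RNA per cell cannot be told apart.

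**Figure D1:**
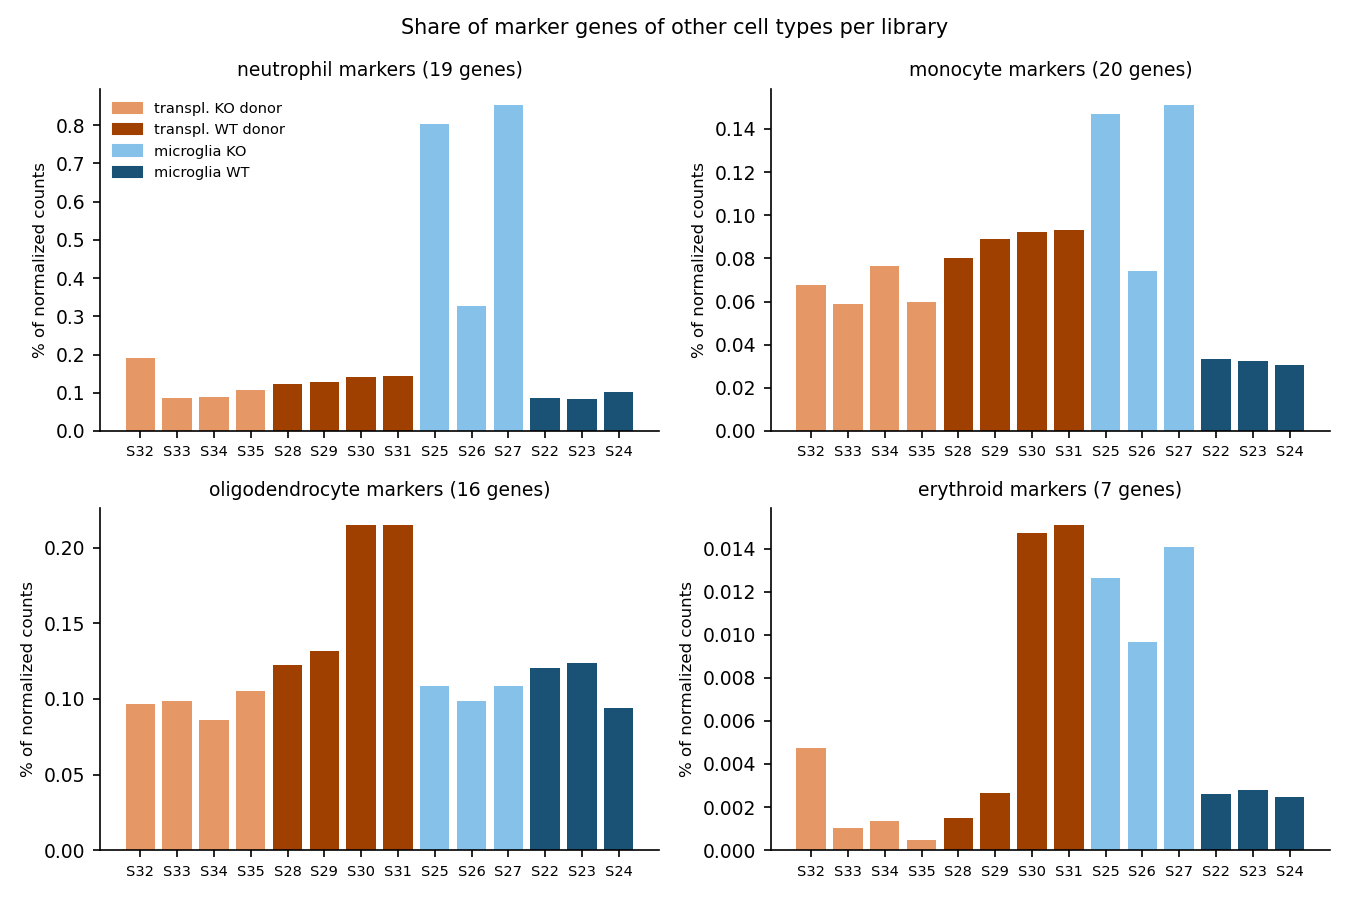
Summed share of marker genes of 4 other cell types in each library, in % of normalized counts, with 1 bar per library coloured by group. Knockout microglia S25 and S27 held the most neutrophil RNA (0.804% and 0.852%), and S30 and S31 of the wild-type-donor group held the most oligodendrocyte RNA.

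The wild-type minus knockout difference was itself different between transplanted cells and microglia for a small share of genes. At a Benjamini-Hochberg adjusted p under 0.05 in limma, 222 genes (1.85%) had a positive and 77 (0.641%) a negative interaction, together 299 (2.49%). Counts of called genes in the lists below stand beside these shares. The totals moved with the libraries: limma called 674 positive and 705 negative genes without S26, and 87 and 19 without S30 and S31. Over all tested genes the median interaction was -0.0054, with 49.6% above 0 and a median standard error (SE) of 0.322. The called genes fell into 4 classes by the sign of the interaction and by which of the differences was the larger in size. In 173 genes the interaction was positive and the microglial difference the larger, 163 of them with an interaction of at least 1 on the log2 scale. A positive interaction with the larger difference in transplanted cells was called for 49 genes. Negative interactions were called for 55 genes with the larger difference in microglia and for 22 with the larger difference in transplanted cells. In 254 of the 299 called genes the differences had opposite signs in the transplanted cells and the microglia, against 4899 of all 12017 tested genes. A sign counts here however small the difference, and a call selects genes whose differences lie far apart. Among called genes above the median level and without predicted genes, 25 had opposite signs with both differences at least 0.5.

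**Figure D2:**
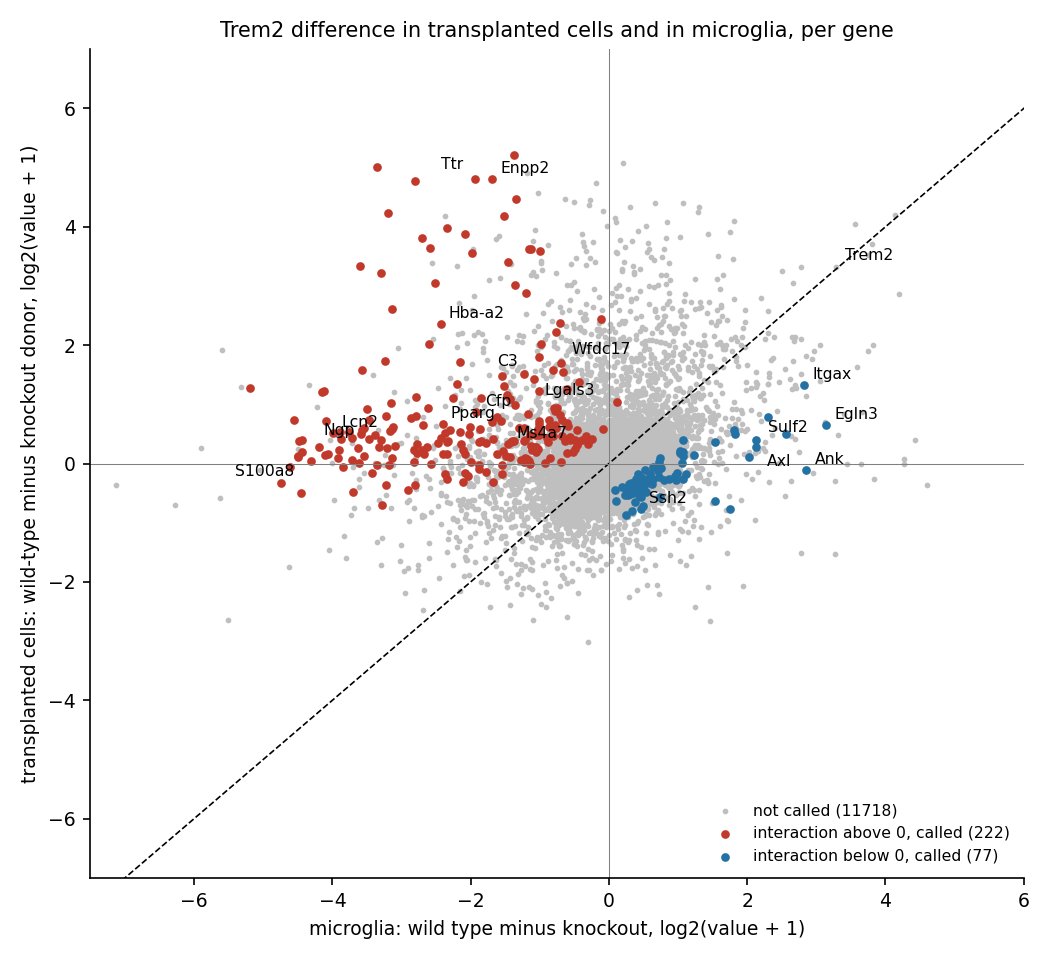
Wild-type minus knockout difference in transplanted cells (vertical axis) against that in microglia (horizontal axis), both on the scale log2(normalized read count + 1), with 1 point per tested gene. Points on the dashed line have no interaction; the 222 called positive genes (red) lie above it, mostly left of 0 on the microglial axis, and the 77 called negative genes (blue) lie below it.

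Trem2 itself (chr17:48346401-48354147, GRCm38) checked the labels. Its normalized read count was 4041, 4782, 5211 and 3962 in knockout-donor cells, 38648, 37066, 53908 and 52324 in wild-type-donor cells, 5516, 4367 and 5965 in knockout microglia, and 51400.2, 53077 and 49346 in wild-type microglia, in the order of the library numbers. All 7 knockout libraries lay below all 7 wild-type libraries. The interaction was 0.04 (SE 0.222, 95% interval -0.44 to 0.51, adjusted p = 0.954), and its sign changed under several alternatives. Tyrobp, the adaptor, gave an interaction of -0.04 (SE 0.274, 95% interval -0.63 to 0.54, adjusted p = 0.954). None of the 20 tested genes of the Trem2 signaling list, which runs from the receptor to the kinases Syk and Lyn, was called in limma, edgeR or DESeq2, while 4 had an unadjusted p under 0.05 in limma, and their interactions ran from -0.66 to 0.41 with a median of -0.12. Without S26 limma called 2 of the 20 negative (median -0.37), against 705 of all 12017 genes, and without S25 and S27 the median was 0.21. At these standard errors, small interactions of the signaling genes were not detectable.

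**Figure D3:**
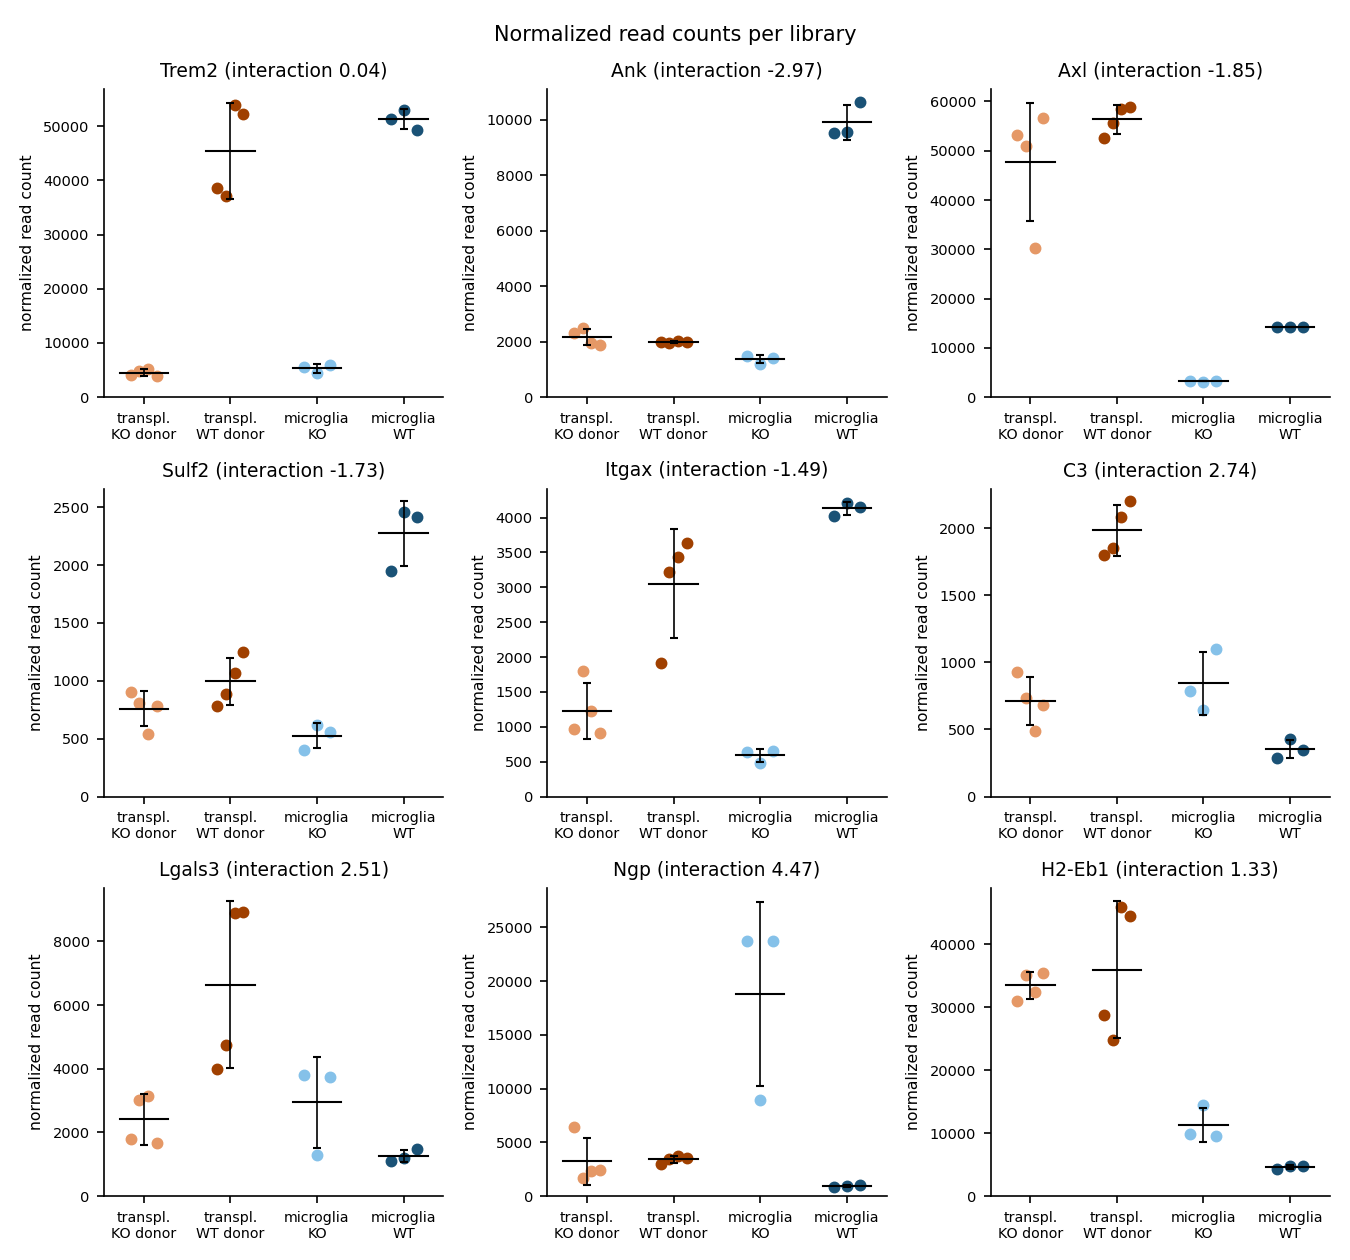
Normalized read counts (linear axes from 0) of 9 genes, 1 point per library, for knockout-donor cells, wild-type-donor cells, knockout microglia and wild-type microglia from left to right. Horizontal lines are group means and bars the SD; Trem2 separates the genotypes in both settings, Ank in microglia, and C3 has its highest values in wild-type-donor cells.

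Genes of the later, Trem2-dependent DAM stage held the clearest negative interactions. Of the 29 tested genes of that list, 4 were called negative (Ank, Axl, Sulf2 and Itgax) and 1 positive (Lgals3), and 6 of the 29 had an interaction above 0. These calls are 13.8% and 3.45% of the list, against 0.641% and 1.85% of all tested genes. Their median interaction was -0.59, made of a median wild-type minus knockout difference of 0.51 in transplanted cells and 1.07 in microglia. Without S25 and S27 the median was -1.46. Without S26, 5 genes of the list were negative and 1 positive (705 and 674 over all tested genes), with a median of -0.09. The median of the list thus rested on which knockout microglia were included.

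Ank, a membrane transporter for the export of pyrophosphate and ATP (chr15:27466677-27594909), had the smallest p of all tested genes. It measured 2292, 2491, 1944 and 1888 in knockout-donor cells, 1985, 1956, 2007 and 1981 in wild-type-donor cells, 1481, 1205 and 1424 in knockout microglia, and 9526, 9553 and 10630.5 in wild-type microglia. The donor genotypes overlapped, while each wild-type microglia library was far above every other library. The wild-type minus knockout difference was -0.11 in transplanted cells and 2.86 in microglia, which gave an interaction of -2.97 (SE 0.165, adjusted p = 1.07e-07). Ank was called under all 30 alternatives, with adjusted p of 1.94e-65 to 0.000276. It was the 1 gene still called when the neutrophil marker score of each library entered the limma model (-3.41, adjusted p = 0.000276). That score separates the knockout from the wild-type microglia without overlap, so that score and genotype cannot be told apart within microglia.

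Axl, a receptor tyrosine kinase by which macrophages bind apoptotic material (chr7:25757273-25788705), was far higher in transplanted cells, and its genotypes were apart in microglia alone. Its counts were 53276, 50953, 30173 and 56622 in knockout-donor cells, 52568, 55631, 58451 and 58919 in wild-type-donor cells, 3284, 3151 and 3298 in knockout microglia, and 14171, 14160.2 and 14292 in wild-type microglia. Both transplanted groups exceeded both microglial groups and overlapped each other, while the microglial genotypes did not overlap. The interaction was -1.85 (SE 0.237, adjusted p = 0.000382), from differences of 0.28 in transplanted cells and 2.13 in microglia.

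Sulf2, which trims sulfate from extracellular heparan sulfate (chr2:166073089-166155663), also had its genotypes apart in microglia alone, but was highest in wild-type microglia. It gave 906, 809, 544 and 779 counts in knockout-donor cells, 783, 889, 1069 and 1245 in wild-type-donor cells, 405, 616 and 556 in knockout microglia, and 1951, 2456 and 2414 in wild-type microglia. The donor genotypes overlapped and the microglial ones did not, with an interaction of -1.73 (SE 0.285, adjusted p = 0.00347). Itgax, the integrin subunit CD11c (chr7:128129547-128150657), differed by genotype in both settings, but by less in transplanted cells. Counts of Itgax were 965, 1801, 1230.3 and 909 in knockout-donor cells, 1912, 3219, 3436 and 3637 in wild-type-donor cells, 638, 484 and 647 in knockout microglia, and 4027, 4214 and 4158 in wild-type microglia. No genotype pair overlapped, the differences were 1.33 in transplanted cells and 2.82 in microglia, and the interaction was -1.49 (SE 0.332, adjusted p = 0.0252). The call of Itgax was lost without any 1 of S22, S23, S24 or S27, with an interaction of -1.62 to -1.28 over the libraries left out in turn, whereas Axl and Sulf2 kept theirs in all 14 such fits.

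The other DAM effectors did not reach the threshold in limma. Of the 29 stage 2 genes, edgeR and DESeq2 each called 5 negative and 1 positive. Over all tested genes edgeR called 75 negative and 206 positive, and DESeq2 247 and 516. The values that follow are those of limma. Csf1, the ligand of the CSF1 receptor, had an interaction of -1.80 (adjusted p = 0.0528) and the cystatin Cst7 one of -1.36 (adjusted p = 0.152). Spp1, which encodes osteopontin, gave -1.17 (adjusted p = 0.744) and the lipoprotein lipase Lpl 0.75 (adjusted p = 0.526). In the stage 1 list, 1 of 10 tested genes was called, the lysozyme gene Lyz2, with an interaction of 1.42 (SE 0.329, adjusted p = 0.0323) and a call kept in 4 of 14 fits, those without S26, S28, S29 or S34 (1.25 to 1.71 over all 14). In the stage 1 list edgeR and DESeq2 each called 1 gene positive and 1 negative. The lipid carrier Apoe gave -0.03 in limma (adjusted p = 0.977). None of the 26 tested homeostatic genes was called in limma, edgeR or DESeq2 (7 had an unadjusted p under 0.05 in limma), with interactions of -1.57 to 0.62 and a median of -0.33. Without S26 limma called 5 of them negative, against 705 of all 12017 genes. Of the 31 tested lysosome genes limma called 0 (5 had an unadjusted p under 0.05), edgeR 2 and DESeq2 4, all negative, and the median was -0.24.

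The promoters of genes at both ends of the range are shown because the classes below differ in sign. Each window runs from 250 bases before to 50 after the RefSeq gene start (build GRCm38.p6) and is written 5′ to 3′ on the strand of the gene, with capitals on matches to GAGGAA, the core of sites of the myeloid factor PU.1, or TTGCNNAA, a form of C/EBP sites. The windows are chr15:27466427-27466726 (plus strand) for Ank, chr17:57228087-57228386 (minus strand) for the complement gene C3 and chr9:110419558-110419857 (plus strand) for the neutrophil granule gene Ngp.
Ank: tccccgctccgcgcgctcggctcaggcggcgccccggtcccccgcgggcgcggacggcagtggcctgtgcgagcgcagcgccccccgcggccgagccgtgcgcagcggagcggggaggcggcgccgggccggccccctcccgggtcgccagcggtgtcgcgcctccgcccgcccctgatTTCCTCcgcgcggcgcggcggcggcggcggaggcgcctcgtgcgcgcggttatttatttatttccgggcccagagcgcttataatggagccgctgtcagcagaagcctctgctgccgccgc
C3: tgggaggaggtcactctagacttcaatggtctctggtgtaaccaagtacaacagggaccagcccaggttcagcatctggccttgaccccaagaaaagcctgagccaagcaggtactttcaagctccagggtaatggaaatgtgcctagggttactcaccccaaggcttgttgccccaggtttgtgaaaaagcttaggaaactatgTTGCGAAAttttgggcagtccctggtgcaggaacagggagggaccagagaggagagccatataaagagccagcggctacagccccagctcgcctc
Ngp: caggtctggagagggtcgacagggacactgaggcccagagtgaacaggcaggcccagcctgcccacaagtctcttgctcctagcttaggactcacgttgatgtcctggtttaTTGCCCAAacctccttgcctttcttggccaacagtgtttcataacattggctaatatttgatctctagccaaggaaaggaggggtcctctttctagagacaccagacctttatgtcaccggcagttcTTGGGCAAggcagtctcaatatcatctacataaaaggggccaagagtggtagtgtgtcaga
The Ank window held 1 PU.1 match (on the minus strand, so that it reads as its complement), the C3 window 1 C/EBP match and the Ngp window 2 C/EBP matches.

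Both strands were searched, and the letters of the motifs do not overlap in these windows. Of all 27025 promoters in the RefSeq table, 28.3% held the PU.1 letters and 10.8% the C/EBP letters, and of the 9639 tested genes with a promoter there, 27.3% and 8.37% did. C/EBP letters were found in 26 of 139 promoters (18.7%) of the called positive genes with the larger difference in microglia, and in 2 of 44 (4.55%) of the called negative genes with the larger difference in microglia. PU.1 letters were found in 38.1% and 29.5% of these groups. In called genes with the larger difference in transplanted cells, C/EBP letters were in 5 of 35 positive promoters (14.3%) and 2 of 20 negative ones (10%). PU.1 letters were in 20% and 30% of those, in the same order. The matches describe the letters of the windows and carry no test.

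Bhlhe40, Myc, Egr2, Tnfaip3 and Dhx33 also had negative interactions. Bhlhe40, a repressor of the basic helix-loop-helix family, measured 621, 582, 347 and 689 counts in knockout-donor cells, 358, 552, 752 and 809.9 in wild-type-donor cells, 230.3, 135 and 225 in knockout microglia, and 763, 738 and 840.0 in wild-type microglia. Knockout microglia lay below every other library, and the interaction was -1.90 (SE 0.405, adjusted p = 0.0197). Among the 22 immediate early genes 2 were called, both negative, and the median was -0.31. Without S26 the median was -0.52 with 3 negative calls (705 over all tested genes), and without S25 and S27 the median was 0.17. Myc, a driver of growth, gave 643, 903, 565 and 551 counts in knockout-donor cells, 609.5, 578, 520.5 and 628 in wild-type-donor cells, 629, 576 and 681 in knockout microglia, and 1146, 1314 and 1259 in wild-type microglia. Wild-type microglia stood above all other libraries, with an interaction of -1.14 (SE 0.228, adjusted p = 0.0138). Egr2, a zinc finger early response factor, had an interaction of -1.51 (adjusted p = 0.0396). Tnfaip3, which encodes the NF-kB inhibitor A20, had one of -1.16 (adjusted p = 0.0444). The RNA helicase gene Dhx33 gave -1.33 (adjusted p = 0.0472).

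Single libraries decided several of these calls. Bhlhe40 lost its call without S22 or S24 (-2.12 to -1.65 over the libraries left out in turn), and Myc kept it in all 14 fits, but not without S30 and S31 together (-1.11). Egr2 kept its call in 5 of the 14 fits (-1.69 to -1.30), Tnfaip3 in 4 (-1.38 to -0.99) and Dhx33 in 2 (-1.74 to -1.07). Egr2 lost it without any 1 of S22, S23, S24, S25, S27, S29, S32, S33 or S35, Tnfaip3 without any 1 of the same libraries or S34, and Dhx33 without any 1 library other than S26 or S29.

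In each of 2 metabolic lists 1 gene was called negative (4.55%, against 0.641% of all tested genes), which describes that gene and not the list. In the cholesterol synthesis list 1 of 22 tested genes was called, negative, and the median was -0.21. That gene, Hmgcs1, makes HMG-CoA early in sterol synthesis. It measured 375, 489, 588 and 509 counts in knockout-donor cells, 306, 399, 322 and 322 in wild-type-donor cells, 646, 502 and 569 in knockout microglia, and 805, 737 and 776 in wild-type microglia. Wild-type microglia were above all other libraries, and the donor genotypes overlapped at their edges, with wild-type-donor cells the lower on average. The differences were -0.53 in transplanted cells and 0.44 in microglia, and the interaction was -0.97 (SE 0.232, adjusted p = 0.0383). Hmgcs1 kept its call in 4 of 14 fits, those without S26, S28, S29 or S32 (-1.09 to -0.87 over all 14).

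Egln3, a prolyl hydroxylase that tags hypoxia-inducible factors for degradation, was called negative in the list of glycolysis and hypoxia genes. It was low outside wild-type microglia, with 15.4, 19.6, 16 and 8.24 counts in knockout-donor cells, 17.9, 28.4, 35.5 and 14.6 in wild-type-donor cells, 63.7, 24.1 and 84.5 in knockout microglia, and 434, 432 and 508 in wild-type microglia. The interaction was -2.5 (SE 0.621, adjusted p = 0.0454), and the call was kept in 4 of 14 fits, without S26, S27, S30 or S35 (-2.86 to -1.98 over all 14). The glycolytic enzyme gene Pfkp was called positive, with an interaction of 1.35 (SE 0.237, adjusted p = 0.00613), and kept that call in all 14 fits, but not without S25 and S27 together (1.26). Hspa5, the chaperone BiP of the endoplasmic reticulum, was the called member of the 14 heat shock genes, with -0.88 (adjusted p = 0.0383) and a call kept in 5 of 14 fits, those without S26, S27, S28, S29 or S35 (-0.98 to -0.75 over all 14).

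A small class of negative genes had the larger difference in transplanted cells, with wild-type-donor cells below knockout-donor cells. Ugcg, the enzyme that makes glucosylceramide (chr4:59189257-59222833), measured 1126, 1491, 1641 and 1382 counts in knockout-donor cells, 1049, 885, 593 and 631 in wild-type-donor cells, 673, 788 and 651 in knockout microglia, and 836, 893 and 781 in wild-type microglia. The donor genotypes did not overlap, the microglial ones overlapped at their edges, and the interaction was -1.11 (SE 0.265, adjusted p = 0.0375). Ssh2, a phosphatase of the actin regulator cofilin, gave -1.23 (adjusted p = 0.0454) and Edem3, which helps to clear misfolded glycoproteins, -1.21 (adjusted p = 0.027). The ubiquitin ligase adaptor Zyg11b gave -1.14 (adjusted p = 0.0483) and the myotubularin family member Mtmr10 -1.04 (adjusted p = 0.0199). Within the wild-type-donor group S30 and S31 were the lowest libraries for all 5 genes, and these are the libraries with high oligodendrocyte RNA. For Mtmr10 the gap was small (690 in S31 and 694 in S29). With the oligodendrocyte marker score as a covariate none of the 5 genes was called, with interactions of -0.69 for Ugcg, -0.89 for Ssh2, -0.83 for Edem3, -0.86 for Zyg11b and -0.80 for Mtmr10. Of all 77 called negative genes, 15 kept their call with that covariate and 15 without S30 and S31. Without S30 and S31 together none of these 5 genes kept its call, with interactions of -0.79 for Ugcg and -0.97 for Ssh2. With 1 library left out, all 5 lost their calls without S23 or S27, and Mtmr10, the steadiest, kept its own in 11 of 14 fits (-1.15 to -0.93). Ugcg kept it in 4 (-1.26 to -0.99), Ssh2 in 3 (-1.52 to -1.02), Edem3 in 6 (-1.38 to -1.03) and Zyg11b in 3 (-1.29 to -0.89).

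The complement genes C3 and Cfp had differences of opposite sign in transplanted cells and microglia. Of 13 tested complement genes, 2 were called, both positive, against a list median of 0.11. C3, the central complement protein (chr17:57203970-57228136), whose promoter is shown above, measured 929, 737, 492 and 685 counts in knockout-donor cells, 1798, 1852, 2082 and 2200.3 in wild-type-donor cells, 785, 642 and 1103 in knockout microglia, and 289, 426 and 347 in wild-type microglia. Wild-type-donor cells were above every other library and wild-type microglia below every other, so that the differences were 1.51 in transplanted cells and -1.23 in microglia. The interaction was 2.74 (SE 0.302, adjusted p = 0.000183), and it was called in all 14 fits that left out 1 library, and also without S30 and S31 (2.63). Without S25 and S27, which leaves S26 as the only knockout microglia, the interaction was 2.39.

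Cfp, the complement activator properdin (chrX:20925454-20931555), gave 518, 339.8, 211 and 504 counts in knockout-donor cells, 504, 437, 961 and 979 in wild-type-donor cells, 798, 649 and 885 in knockout microglia, and 229, 171 and 215 in wild-type microglia. The donor genotypes overlapped, and S30 and S31 were the highest of all 14 libraries. The interaction of Cfp was 2.78 (SE 0.457, adjusted p = 0.00347), and its call was lost without S25 and S27 together (2.53). The other complement genes, among them the C1q chains C1qa (0.11, adjusted p = 0.806) and C1qb (0.17, adjusted p = 0.745), were not called.

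Lgals3, Wfdc17 and Clu were among the genes with the largest positive interactions in the class whose larger difference was in transplanted cells. Lgals3, the lectin galectin-3 (chr14:47367751-47386160), measured 1794, 3012, 3157 and 1659.6 counts in knockout-donor cells, 4003, 4758, 8878 and 8921 in wild-type-donor cells, 3796, 1306 and 3733 in knockout microglia, and 1105, 1199 and 1485 in wild-type microglia. Wild-type-donor cells were highest, and among knockout microglia S26 lay within the wild-type range while S25 and S27 lay far above it. The interaction was 2.51 (SE 0.523, adjusted p = 0.0173). The call was lost without any 1 of S22, S25 or S27 (2.25 to 3.02 over the libraries left out in turn), and without S25 and S27 together the interaction was 1.49. Wfdc17, a secreted protein of activated macrophages, gave 2617, 4190.0, 5114 and 2549.5 counts in knockout-donor cells, 5375, 9576, 17745 and 17623 in wild-type-donor cells, 1228, 1147 and 1399 in knockout microglia, and 733, 688 and 927 in wild-type microglia. No genotype pair overlapped, with the order reversed by origin, and the interaction was 2.39 (SE 0.485, adjusted p = 0.0149). S30 and S31 held its highest values, and the call was lost without them (1.74) and without S25 and S27 (2.27). Clu, a secreted chaperone and lipid carrier that astrocytes also make, gave 1.87 (SE 0.352, adjusted p = 0.00909), and lost its call without S25 and S27 (1.37) or S30 and S31 (1.70).

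In the lipid handling list, 4 of 26 tested genes were called positive and 0 negative, with a median of 0.18. Without S26 the list had 6 positive and 3 negative calls (674 and 705 over all tested genes), and without S30 and S31 2 positive calls (87 over all tested genes). On all 14 libraries edgeR called 2 positive and 1 negative (206 and 75 over all tested genes), and DESeq2 4 and 3 (516 and 247). The one-sided count thus rested on the libraries included and on the model. Without S25 and S27 the list median was 0.13. Pparg, a nuclear receptor for fatty acids (chr6:115360951-115490399), was a gene of low counts, with 60.8, 95.2, 70.3 and 48.1 in knockout-donor cells, 133, 97.8, 105 and 91.5 in wild-type-donor cells, 66.8, 54.7 and 61.8 in knockout microglia, and 19.6, 4.52 and 13 in wild-type microglia. Wild-type microglia were the lowest 3 libraries and the donor genotypes overlapped at their edges, with an interaction of 3.07 (SE 0.559, adjusted p = 0.00766), not called without S25 and S27 (2.91). Nr1h3, the oxysterol receptor LXR alpha, measured 55, 63.5, 46.9 and 28.8 in knockout-donor cells, 149, 124, 141 and 140.3 in wild-type-donor cells, 55.5, 44.9 and 45.5 in knockout microglia, and 15.7, 50.5 and 34.5 in wild-type microglia. The donor genotypes were apart and the microglial ones overlapped, and the interaction was 2.21 (SE 0.517, adjusted p = 0.0343). Nr1h3 kept its call in 6 of 14 fits, and lost it without S22, S24, S25, S27, S30, S31, S34 or S35 (1.75 to 2.57). Pltp, a phospholipid transfer protein, gave 1.03 (adjusted p = 0.0454), and the fatty acid carrier Fabp4 4.18 (adjusted p = 0.0221). Fabp4 had at most 21.7 counts in any library, its interaction was 2.42 with a pseudocount of 5, and its call was lost without any 1 of S22, S25, S27, S31 or S33 (3.84 to 4.52).

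Antigen presentation genes were called mainly through the microglial side. In the list of 9 MHC class II genes, 2 were called positive and 1 negative, with a median of 0.95. H2-Eb1, the beta chain of the I-E molecule (chr17:34305867-34316674), measured 30898, 35104, 32385 and 35364 counts in knockout-donor cells, 28676, 24714, 45962 and 44447 in wild-type-donor cells, 9821, 14412 and 9543 in knockout microglia, and 4257, 4730.4 and 4769 in wild-type microglia. Knockout microglia held more than wild-type microglia with no overlap, and wild-type-donor libraries lay on both sides of the knockout-donor ones. The differences were 0.06 in transplanted cells and -1.27 in microglia, and the interaction was 1.33 (SE 0.283, adjusted p = 0.0198). Its call was lost without S22 (1.14 to 1.49 over the libraries left out in turn) and without S30 and S31 together (0.94). H2-Aa, the alpha chain of the I-A molecule, gave 1.26 (adjusted p = 0.0243), and H2-Ob, part of the molecule that restrains peptide loading, -0.64 (adjusted p = 0.0264). H2-Aa kept its call in 8 of the 14 fits (1.12 to 1.44), losing it without S22, S23, S24, S25, S27 or S33, and H2-Ob in 6 (-0.68 to -0.60), losing it without those or S31 or S35.

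Most called genes of the lists for brain macrophages of hematopoietic origin and border-associated macrophages had positive interactions, as did 222 of all 299 called genes. In the hematopoietic-origin list 5 of 18 tested genes were called positive and 1 negative (Axl, shared with the DAM list), with a median of 0.74. The count moved with the libraries included, as did the total over all tested genes. In the list 10 genes were positive without S26 (674 over all genes) and 1 without S30 and S31 (87 over all genes, list median 0.75). Without S25 and S27 the list median was 0.19. Ms4a7 (chr19:11321039-11336146) measured 17018, 15783, 21410.5 and 16785 counts in knockout-donor cells, 16246, 20411, 26888 and 26708 in wild-type-donor cells, 1275, 679.7 and 1309 in knockout microglia, and 372, 335 and 436 in wild-type microglia. The donor genotypes overlapped at a far higher level than any microglia, and knockout microglia exceeded wild-type microglia without overlap. Its interaction was 1.78 (SE 0.313, adjusted p = 0.00586), from 0.33 in transplanted cells and -1.46 in microglia. Without S25 and S27 it was 1.17 and not called, and without S30 and S31 it was 1.51 and not called. The chemokine receptor Ccr1 gave 1.33 (SE 0.253, adjusted p = 0.01), called in all 14 fits that left out 1 library, but not without S25 and S27 together (0.97).

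In the list of border-associated macrophages, 4 of 12 tested genes were called, all positive, with a median of 1.45. Without S25 and S27 the median was 1.45. Without S30 and S31, 2 were called positive (87 over all tested genes), with a median of 0.80. Clec4n, the fungal receptor Dectin-2, measured 1379, 1165, 1422 and 901 counts in knockout-donor cells, 1312, 1884, 1889 and 1699 in wild-type-donor cells, 295, 288 and 301 in knockout microglia, and 131, 110.0 and 162 in wild-type microglia. Pf4, a platelet-type chemokine made by border macrophages, measured 3702, 2444, 3229 and 3485 in knockout-donor cells, 3358, 3931, 5659 and 5308 in wild-type-donor cells, 974, 983 and 1082 in knockout microglia, and 454, 488 and 519 in wild-type microglia. In both genes the microglial genotypes were apart and the donor genotypes overlapped. The interaction was 1.63 for Clec4n (SE 0.262, adjusted p = 0.00301) and 1.55 for Pf4 (SE 0.249, adjusted p = 0.00305). Without S25 and S27 the interactions were 1.6 and 1.5, in that order, and both calls held without S30 and S31 (1.54 and 1.25). With the closest libraries averaged (S22 with S23, S25 with S27 and S30 with S31), neither gene was called. F13a1, a coagulation factor subunit that monocytes also express, gave 1.68 (adjusted p = 0.0165), and its call was lost without S24 or S27 (1.56 to 1.99). Mannose receptor gene Mrc1, a defining marker of these cells, gave 0.05 (adjusted p = 0.929).

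The summed share of monocyte markers also differed between genotypes. Summed over 20 genes it was 0.0589% to 0.0763% of normalized counts in knockout-donor cells, 0.0804% to 0.0931% in wild-type-donor cells, 0.0741% to 0.151% in knockout microglia and 0.0306% to 0.0332% in wild-type microglia. By this summed share, knockout microglia and wild-type-donor cells were each above the other genotype of their origin, without overlap. By the mean log2 value of the tested markers the donor genotypes overlapped (7.85 to 8.62 in knockout-donor cells, 8.20 to 8.53 in wild-type-donor cells). Knockout microglia (8.96 to 9.64) stayed above wild-type microglia (7.22 to 7.28). C3 separated in both origins as the summed share did, while Ms4a7, Clec4n and Pf4 did so in microglia and overlapped between donor genotypes. None of the 20 markers was at 0 in all libraries of a group. The part of monocyte RNA in these interactions was not tested.

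Among inflammatory genes, 3 of 24 in the cytokine and NF-kB list were called. Cd40, a costimulatory receptor, gave 1.42 (SE 0.309, adjusted p = 0.0222) and the neutrophil attractant Cxcl2 1.80 (SE 0.401, adjusted p = 0.0253), beside the negative Tnfaip3, and the list median was 0.25. Without S25 and S27 none of the 3 kept its call, and the median was -0.04. Cd40 lost its call without any 1 of S22, S23, S25, S27, S30 or S31 (1.27 to 1.63), and Cxcl2 without the same libraries or S35 (1.62 to 1.97). Of 30 interferon response genes, 1 was called (3.33%, against 1.85% positive over all tested genes), and the list median was -0.02. It was the antiviral membrane protein Ifitm3, with 1.30 (adjusted p = 0.0451) and a call kept without S26, S28 or S29 alone (1.04 to 1.70 over all 14). That list depended on the knockout microglia used. Without S26, 11 of the 30 were called positive (674 over all 12017 genes) with a median of 0.63, and without S25 and S27 the median was -0.90.

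**Figure D4:**
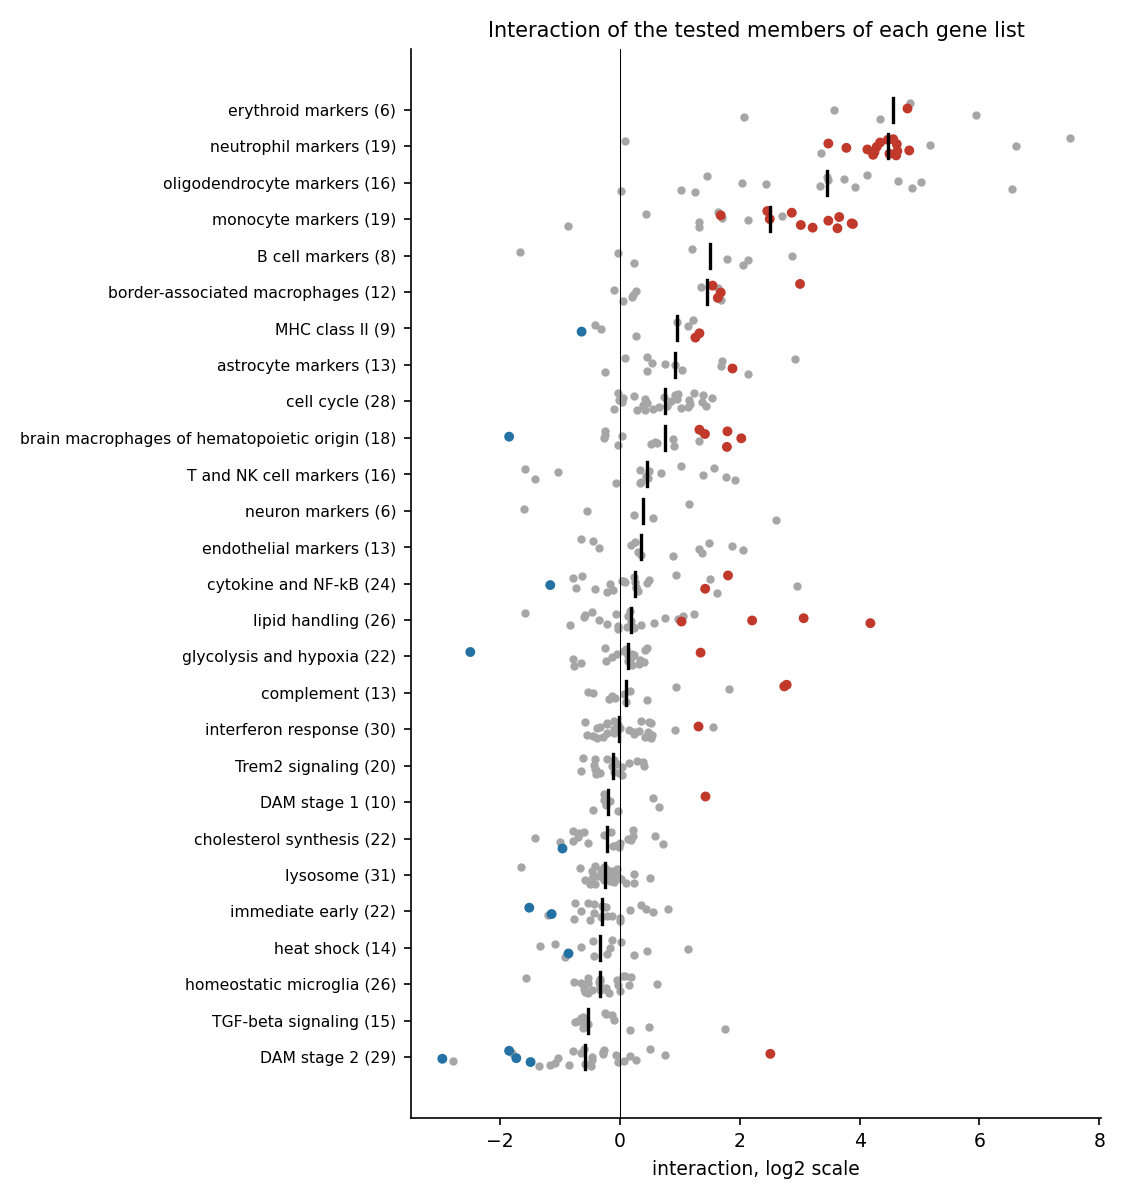
Interaction (log2 scale) of every tested member of each list, 1 point per gene, with the number of tested members in brackets and a bar at the list median. Red points are called positive and blue points called negative at an adjusted p under 0.05; the DAM stage 2 list has the lowest median (-0.59), and neutrophil markers have the most calls (14 of 19).

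Neutrophil markers held the most calls of the 27 lists. Of 19 tested neutrophil markers 14 were called, all positive, with a median of 4.47 from a median difference of 0.27 in transplanted cells and -4.20 in microglia. Ngp, a neutrophil granule protein (chr9:110419747-110423012), whose promoter is shown above, measured 6462, 1724, 2338 and 2439.6 counts in knockout-donor cells, 2985, 3482, 3697 and 3559 in wild-type-donor cells, 23708, 8964 and 23778 in knockout microglia, and 841, 921 and 1057 in wild-type microglia. Knockout microglia were above all other libraries and wild-type microglia below them, while the donor genotypes overlapped. The interaction was 4.47 (SE 0.525, adjusted p = 0.000206), and 3.53 without S25 and S27.

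S100a8, a subunit of the calcium-binding protein calprotectin (chr3:90668978-90670035), gave 6323, 2384, 3344 and 3469.6 counts in knockout-donor cells, 2234, 4123, 5043 and 5086 in wild-type-donor cells, 29831, 9755 and 33425 in knockout microglia, and 832, 846 and 1185 in wild-type microglia. The pattern was the one of Ngp, with an interaction of 4.61 (SE 0.565, adjusted p = 0.000246). Its partner S100a9 gave 4.62, the cathelicidin Camp 4.63, the iron-scavenging lipocalin Lcn2 4.50, the collagenase Mmp8 4.34, the gelatinase Mmp9 4.13 and the secreted protein Wfdc21 4.83, with adjusted p of 0.000186 to 0.00023. Each of these 8 genes kept its call in all 14 fits that left out 1 library. Without S25 and S27, which leaves S26 as the only knockout microglia, their interactions ran from 3.20 for Mmp8 to 4.23 for Wfdc21.

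Monocyte markers gave the same picture at a smaller size, with 11 of 19 tested genes called positive, 0 negative and a median of 2.5. The interaction was 3.89 for the haptoglobin gene Hp, 3.87 for Ifitm6 and 3.66 for Plac8, with adjusted p of 0.000186, 0.000179 and 0.000537. The defining classical monocyte marker Ly6c2 gave 3.63 (adjusted p = 0.00144), while the chemokine receptor Ccr2 gave 1.33 (adjusted p = 0.153). These sets are markers of cells that the CD45+CD11b+ gate can also hold, and the neutrophil share of RNA was highest in knockout microglia. The summed monocyte share was highest in S25 and S27, while S26 lay below all wild-type-donor libraries. By the mean log2 value of the markers, S26 (8.96) lay above all wild-type-donor libraries (8.20 to 8.53). When the neutrophil marker score of each library was added to the model, 0 genes were called positive and 1 negative (Ank) in limma, and 446 had an unadjusted p under 0.05, against 2004 without it. The score itself separates the knockout from the wild-type microglia without overlap (9.81 to 11.6 against 6.88 to 6.95 on the log2 scale), so that the score and the genotype cannot be told apart within microglia.

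Ttr, the thyroid hormone carrier transthyretin of the choroid plexus, and Enpp2, which makes lysophosphatidic acid, had the largest interactions among named genes, with a wide spread between libraries. Ttr measured 171, 128, 40.5 and 1657 counts in knockout-donor cells, 1817, 10375, 7179 and 6943 in wild-type-donor cells, 2487, 1116 and 2881 in knockout microglia, and 550.3, 536 and 478 in wild-type microglia. Enpp2 measured 51.1, 110.1, 30.9 and 1113 in knockout-donor cells, 1272, 5179, 4343 and 4435 in wild-type-donor cells, 2999, 535 and 2812 in knockout microglia, and 714, 698 and 266 in wild-type microglia. In both genes S35 stood above the other knockout-donor libraries, S28 below the other wild-type-donor ones and S26 below the other knockout microglia. The interaction was 6.75 for Ttr (SE 1.22, 95% interval 4.15 to 9.35, adjusted p = 0.00749) and 6.50 for Enpp2 (SE 1.33, 95% interval 3.67 to 9.34, adjusted p = 0.016). Enpp2 lost its call without S24, S25 or S27 (5.87 to 7.58), and both genes lost theirs without S25 and S27 together (5.91 for Ttr, 4.88 for Enpp2) and without S30 and S31 together (6.4 for Ttr, 6.12 for Enpp2). Markers of choroid plexus were not among the lists, and their part in the result was not tested.

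Erythroid and oligodendrocyte genes had high medians with few or no calls. Of 6 tested erythroid genes 1 was called, Hba-a2, a hemoglobin alpha gene with a near-identical copy that reads may be split with, at 4.78 (SE 1.08, adjusted p = 0.0277), and the median was 4.56. Hba-a2 lost its call without any 1 of S22, S23, S24, S25, S27, S30 or S31 (3.96 to 5.35). Among 16 oligodendrocyte markers the median was 3.46, from a median difference of 3.47 in transplanted cells and 0.01 in microglia, and 0 were called in limma. Without S30 and S31 the oligodendrocyte median was 0.76. Of 13 astrocyte markers 1 was called (Clu), with a median of 0.92. T and NK cell markers (16 tested), B cell markers (8), endothelial markers (13) and neuron markers (6) had 0 calls in limma, with medians of 0.45, 1.5, 0.35 and 0.39 in that order. In these 4 lists 1, 2, 0 and 1 genes had an unadjusted p under 0.05, and edgeR and DESeq2 called 0. Among the oligodendrocyte markers 8 had an unadjusted p under 0.05, edgeR called 1 and DESeq2 6, all positive.

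The number of called genes depended strongly on single libraries. Most signs of the called genes named by rule did not, but these genes were picked by their calls. The positive share of all calls was 74.2% in the 14-library fit and 48.9% without S26. Some list medians changed sign, such as that of the interferon response (0.63 without S26, -0.90 without S25 and S27). Without S26, which leaves the close pair S25 and S27 as knockout microglia, the same fit called 674 genes positive and 705 negative. Among them were all 299 of the 14-library fit, and without S27 the fit called 121 and 22. Of the 52 called genes named by rule, 26 kept their call whichever of the 14 libraries was left out. Without S30 and S31, 27 of the 52 were still called. Ank, Axl, Sulf2, C3, Clec4n, Pf4 and the neutrophil genes named above were called in all 14 fits that left out 1 library and without S30 and S31. With the closest libraries averaged, Clec4n and Pf4 lost their calls, as did Itgax, Bhlhe40, Myc, Pfkp, Ccr1, Ms4a7 and Cfp among others. Ank, Axl, Sulf2, C3 and these neutrophil genes kept theirs.

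**Figure D5:**
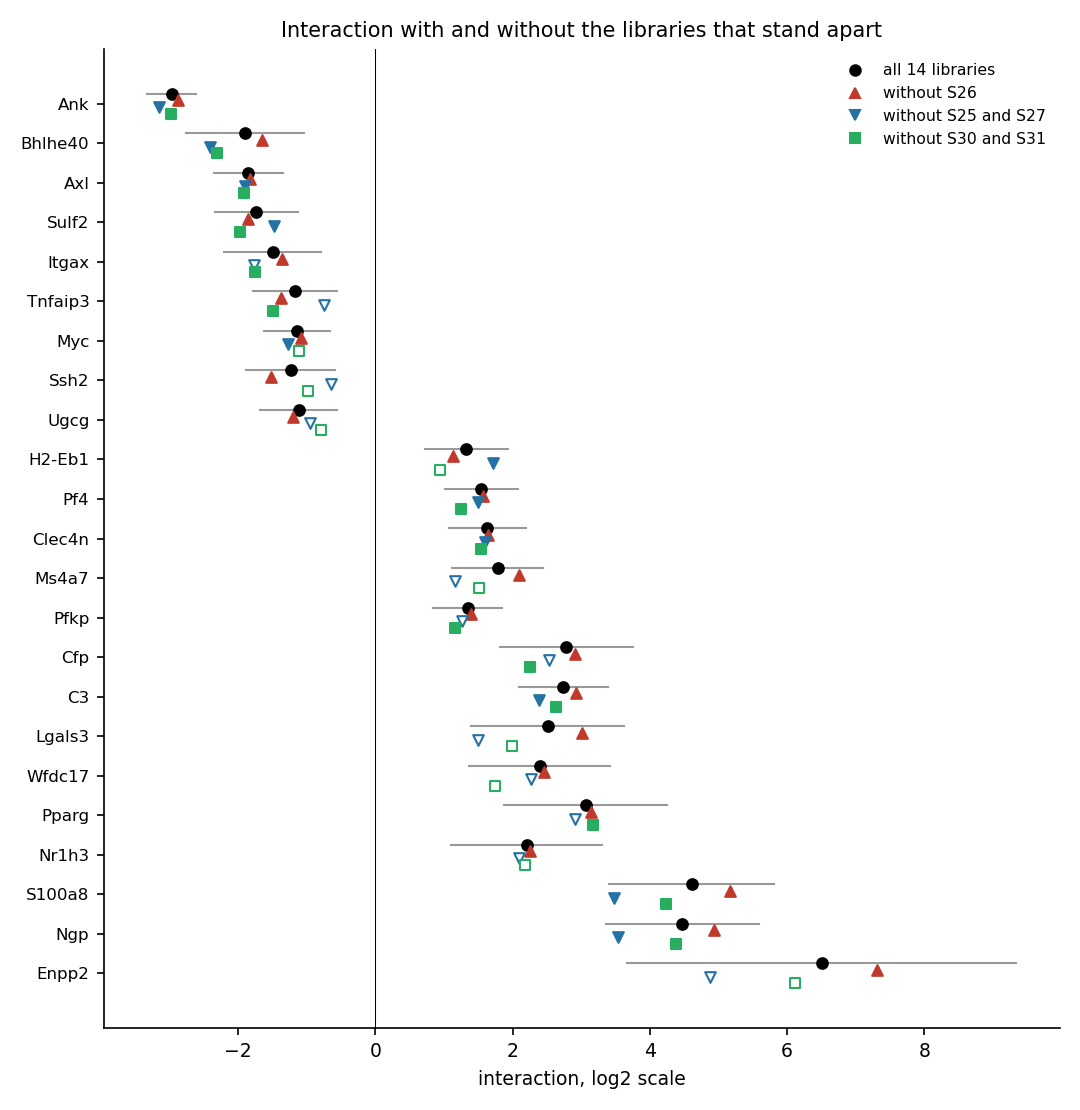
Interaction (log2 scale) of 23 named genes in all 14 libraries (black, with grey bars for the 95% interval of that fit) and without S26, without S25 and S27, or without S30 and S31. Filled symbols have an adjusted p under 0.05 and open symbols do not. Every symbol keeps the sign of the black point. Ank, Axl, Sulf2, C3, Clec4n, Pf4, S100a8 and Ngp are among those filled with all 14 libraries, without S26 and without S30 and S31. Without S25 and S27 the knockout microglia are S26 alone, so the fill of those symbols has no spread within that group behind it. Clec4n and Pf4 were not called with the closest libraries averaged, a setting not shown here.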

How the data were processed

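Bulk RNA sequencing of sorted cells used the SMART-Seq v4 kit, per the labels' protocols. The authors deposited 1 normalized signal per gene and library. The submitters' processing notes name bcl2fastq, STAR 2.5.2b, HTSeq, RSEM and DESeq2 (given as 3.17), with mm10 and GRCm38.p6 as builds. What each tool did, and with which annotation and filters, is not given in the sources used here. Deposited values behave as read counts scaled by a size factor: in each of the 14 libraries at least 99.99% of the values were whole multiples of the library's step (tolerance 0.02), and the reads were recovered from it. A column carries its group but no distinct replicate number, so each library is called by its sample number (S22 to S35).

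Values were analysed as log2(value + 1) with limma 3.58.1 (lmFit, eBayes with trend, R 4.3.3), with 1 mean for each of 4 groups. The interaction was tested two-sided, with Benjamini-Hochberg adjustment over 12017 genes. Alternatives were other pseudocounts, filters, scalings and weights, edgeR 4.0.16 and DESeq2 1.42.0 on recovered reads, libraries left out, and marker scores as covariates. The fit was tested on simulated data. Gene positions are those of GENCODE vM21 on GRCm38.

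Genes were named by rule. It took Trem2 and Tyrobp, then, among called genes above the median level and without predicted genes, the 6 with the largest interaction in each of 4 classes by sign and by origin of the larger difference. It added up to 3 called members of each list, by smallest p, and the 6 largest among called genes whose differences had opposite signs and were each at least 0.5. Csf1, Cst7, Spp1, Lpl, Apoe, Pltp, C1qa, C1qb, Ly6c2, Ccr2, Mrc1, Tk1, Itgav and Itgb8 were named after their values were seen. The members, the 27 gene lists and the rule were chosen with earlier results of these data known. A gene of 1 list was left out of that list and is not reported here.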

Additional observations from a re-analysis of the deposited data

Results flagged for a closer look

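Each of the 52 called genes named by rule is a difference between origins in the Trem2 contrast, tested as the interaction itself (wild type minus knockout in transplanted cells, less the same in microglia, log2 scale). Negative interactions were those of Ank (-2.97), Egln3 (-2.50), Bhlhe40 (-1.90), Axl (-1.85), Sulf2 (-1.73), Egr2 (-1.51), Itgax (-1.49), Dhx33 (-1.33), Ssh2 (-1.23), Edem3 (-1.21), Tnfaip3 (-1.16), Zyg11b (-1.14), Myc (-1.14), Ugcg (-1.11), Mtmr10 (-1.04), Hmgcs1 (-0.97), Hspa5 (-0.88) and H2-Ob (-0.64). Among positive ones the interaction was at least 3 on the log2 scale for Ttr (6.75), Enpp2 (6.50), Wfdc21 (4.83), Hba-a2 (4.78), Camp (4.63), S100a9 (4.62), S100a8 (4.61), Lcn2 (4.50), Ngp (4.47), Mmp8 (4.34), Fabp4 (4.18), Mmp9 (4.13), Hp (3.89), Ifitm6 (3.87), Plac8 (3.66) and Pparg (3.07). Smaller positive interactions were those of Cfp (2.78), C3 (2.74), Lgals3 (2.51), Wfdc17 (2.39), Nr1h3 (2.21), Clu (1.87), Cxcl2 (1.80) and Ms4a7 (1.78). The smallest positive ones were those of F13a1 (1.68), Clec4n (1.63), Pf4 (1.55), Cd40 (1.42), Lyz2 (1.42), Pfkp (1.35), H2-Eb1 (1.33), Ccr1 (1.33), Ifitm3 (1.30) and H2-Aa (1.26).

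In groups of 4 libraries, 8 of 108 tests of 1 library against the rest of its group (on the log2 scale) found a gap wide for that group's range, where chance alone gives about 5.4. In knockout-donor cells Axl was low in S34 (30173), and Mmp8 (674) and Hp (697) were high in S32. In wild-type-donor cells S100a9 (2057), Enpp2 (1272) and H2-Ob (1048) were low in S28, Plac8 (348) was high in S28, and F13a1 (1545) was low in S29. The part of these libraries in the interactions was not tested beyond leaving each out in turn.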

How the results depend on the processing

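In limma the counts of called positive and negative genes (222 and 77) kept within 1.5 times under other pseudocounts, filters, all 17 libraries, quantile normalization and edgeR (206 and 75). Upper-quartile rescaling gave 227 and 51, DESeq2 516 and 247, and array weights 2199 and 2300. Leaving out 1 library in turn gave 121 to 674 positive and 17 to 705 negative genes, the highest of both without S26. Without S25 and S27 the counts were 73 and 63, without S30 and S31 87 and 19, and without S26, S30 and S31 (a setting chosen after seeing the data, like the list counts without these libraries) 322 and 303. Averaging the closest libraries gave 51 and 7, the neutrophil score as a covariate 0 and 1, and the oligodendrocyte score 85 and 25. The cause was not tested, except that averaging and leaving out libraries leave fewer samples.

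No called gene of the 52 named changed sign except Dhx33 (0.0047) and Ifitm3 (-0.14), both with the neutrophil score. The Trem2 interaction, not called, changed sign in edgeR (-0.015), without S25 and S27 (-0.23), without S30 and S31 (-0.21), without S26, S30 and S31 (-0.077), with averaging (-0.10) and with the neutrophil (-0.35) or oligodendrocyte score (-0.30), and ran from -0.058 to 0.17 over libraries left out in turn. The Tyrobp interaction, not called, changed sign with array weights (0.38), quantile normalization (0.00878) and DESeq2 (0.0076), and ran from -0.17 to 0.13. No paired analysis was possible because the columns carry no distinct replicate numbers.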

Other observations

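Genes of the cell cycle leaned to positive interactions. Of 28 tested, 25 had an interaction above 0, with a median of 0.76 from a median wild-type minus knockout difference of 0.02 in transplanted cells and -0.92 in microglia. In limma and edgeR 0 were called (4 had an unadjusted p under 0.05), DESeq2 called 1 positive, and the thymidine kinase Tk1 came closest in limma (1.38, adjusted p = 0.067). Without S26 limma called 10 of the 28 positive, against 674 of all 12017 genes, and without S25 and S27 the median was -0.15. Genes of TGF-beta signaling, which maintains the homeostatic microglial state, leaned the other way, with a median of -0.53 and 3 of 15 above 0. Limma, edgeR and DESeq2 called 0 of them (7 had an unadjusted p under 0.05 in limma). Without S26 limma called 5 negative, against 705 of all 12017 genes, and without S25 and S27 the median was -0.02. The integrin subunit Itgav, which activates latent TGF-beta, gave -0.74 (adjusted p = 0.116), and Itgb8, its partner, 1.76 (adjusted p = 0.166).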
